A study of Mus musculus with 12 samples.

Results

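Genes of cholesterol and lipid synthesis, with genes of its control and of sterol transport, were followed in injured mouse kidney. Many, but not all, are targets of the sterol regulatory element binding proteins (SREBPs). The set held 35 genes listed by name for their place in this pathway, and all 35 were found in both deposited expression tables, among 32199 genes of the PAD4 table and 31719 of the IL-33 table. After a filter on low values (a mean of at least 0.5 FPKM over the 6 libraries of a table), 34 of the 35 remained among 13986 tested genes of the PAD4 table, Acaca falling below the filter, and all 35 among 14513 of the IL-33 table. FPKM counts sequenced fragments per unit of transcript length and of sequencing, and so is a level corrected for gene length.

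The study compared kidneys of knockout and wild-type mice after contrast-induced acute kidney injury, an injury caused by iodinated X-ray contrast agent, by bulk sequencing of poly(A) RNA. The first set held mice labelled PAD4 knockout (Padi4 encodes an enzyme that converts arginine to citrulline in histones) and their own wild-type mice. The second held mice labelled IL-33 knockout (Il33 encodes an alarmin cytokine released by damaged cells) and another wild-type group. Each group had 3 libraries, 12 in all. Per the labels all were male and 8 weeks old, the wild type being C57BL/6. Every mouse had lost one kidney 3 weeks before, went 24 h without water, and was given furosemide, a loop diuretic, 20 min before iodixanol, the contrast agent, entered the tail vein, and the kidney was taken 24 h later. The labels describe the libraries of a group as independent biological replicates. The labels do not give the design of either knockout allele, the strain of the knockouts or whether wild types were littermates, and kidneys without contrast injury were not analysed here. Each set was also its own batch in the labels, so each knockout was compared with the wild type of its own table.

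Cells make cholesterol from acetyl-CoA through mevalonate, isoprenoids, squalene and lanosterol. When membrane sterol runs low, Scap carries the SREBP precursors out of the endoplasmic reticulum to the Golgi, where proteases release the part that enters the nucleus and switches on the genes of the pathway, and when sterol is plentiful the Insig proteins hold Scap back. Srebf2 chiefly drives sterol genes and Srebf1 chiefly fatty acid genes, while liver X receptors (LXR), which sense oxidised sterols, turn on export genes such as Abca1 and also Srebf1. In the kidney the proximal tubule has a high turnover of membrane and takes up filtered lipid-laden protein.

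Padi4 had 0.217, 0.497 and 0.187 FPKM in the PAD4 knockouts, against 0.704, 1.06 and 1.67 FPKM in wild type (-0.71 ± 0.19 (adjusted p = 0.0147), log2 change ± SE). Il33 had 1.14, 0.616 and 1.02 FPKM in the labelled IL-33 knockouts, against 1.71, 1.13 and 3.64 FPKM in wild type (-0.65 ± 0.28 (adjusted p = 0.099), exact two-sided permutation p = 0.2). Each transcript therefore remained in the kidneys labelled as its knockout. Padi4 lay below every wild-type library there, while Il33 overlapped wild type, and both groups are called by their labels here. In the PAD4 set Il33 had 0.889, 1.58 and 1.28 FPKM in the PAD4 knockouts, against 3.57, 5.29 and 3.28 FPKM in wild type. That change was -1.15 ± 0.23 (adjusted p = 0.00208), without overlap, so Il33 passed the threshold in the PAD4 set and not in the IL-33 set. FPKM summed to 700601 to 812981 per library in the PAD4 table, with 52.0% to 60.0% from mitochondrial genes, and to 385124 to 420279 in the IL-33 table, with 24.1% to 29.2% from mitochondrial genes, so levels were compared only within a table. FPKM does not carry sequencing depth, so the depth of each library is unknown.

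Throughout, a change is knockout minus wild type in log2(FPKM + 1), given ± its SE from limma, and a gene rose or fell where the limma p, adjusted by Benjamini-Hochberg over all genes tested, was under 0.05. This scale understates changes of genes at low FPKM. The smallest p of an exact permutation test between groups of 3 is 0.1, so the calls rest on the spread that limma shares across genes. In bulk tissue, fewer cells of a type and less RNA per cell cannot be told apart.

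In kidneys labelled IL-33 knockout, most genes of the set were higher. Of the 35 members, 27 rose (77.1%), where 22.2% of all tested genes rose, and 1 fell (Elovl6), where 16.8% of all tested genes fell and 39.1% changed in either direction. All 3 knockout libraries lay above all 3 wild-type libraries for 29 members, as they did for 30.2% of tested genes. The median change of the 35 was 1.22, beside 0.04 over all tested genes, and 18 members rose by at least 1 on the log2 scale, as 6.18% of tested genes did. Summed over the 35, the level was 816, 830 and 859 FPKM in the labelled IL-33 knockouts, against 291, 328 and 351 FPKM in wild type. Ranked by change from the highest, Cyp51 stood at place 37, Fads2 at 74 and Idi1 at 96 of 14513 genes.

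**Figure D1:**
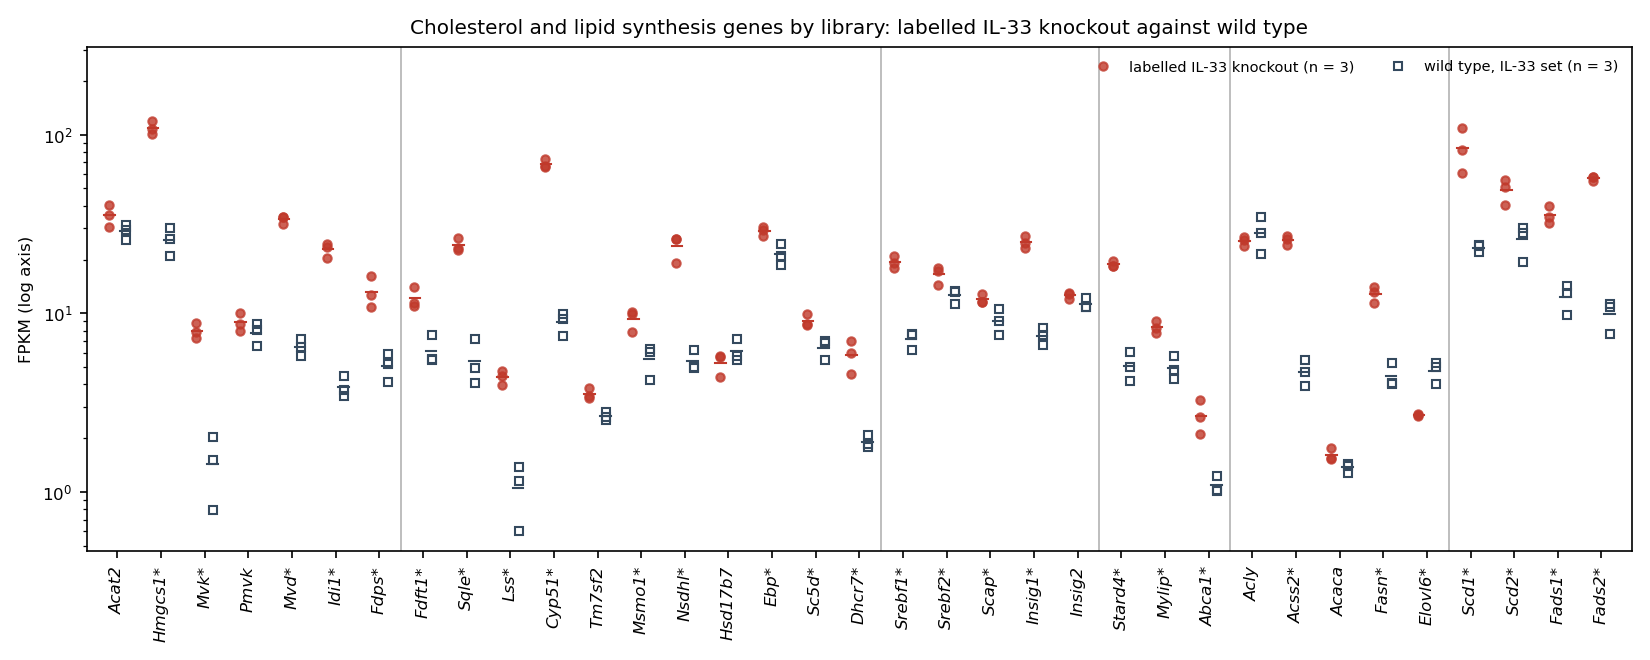
FPKM on a log axis of the 35 genes in each library of the IL-33 set, in order of role and divided by grey lines; filled circles are the 3 labelled IL-33 knockout kidneys, open squares the 3 wild-type kidneys, bars the group means, and an asterisk marks an adjusted p under 0.05. For 29 genes all circles lie above all squares, with the widest gaps at Cyp51, Idi1 and Fads2, and for Elovl6 they lie below.

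Other cell and injury markers moved with the same groups. Of 9 tubular injury genes, among them Havcr1 (kidney injury molecule) and Lcn2 (a lipocalin released by damaged tubules), 8 fell. The list summed to 1570 to 2830 FPKM in the labelled IL-33 knockouts, against 7320 to 9320 FPKM in wild type. Spp1 made up most, with 1340, 1590 and 2590 FPKM in the labelled IL-33 knockouts, against 6350, 7000 and 7870 FPKM in wild type. The median level of the list was 15.4 to 16.6 FPKM in the labelled IL-33 knockouts, against 78.6 to 153 FPKM in wild type. Lcn2 alone had 16.5, 24.2 and 16.6 FPKM in the labelled IL-33 knockouts, against 230, 291 and 608 FPKM in wild type. Of 14 proximal tubule genes 11 rose and 1 fell, with a median level of 83.4 to 109 FPKM in the labelled IL-33 knockouts, against 30.8 to 33.5 FPKM in wild type. Their sum ran from 10100 to 12800 FPKM in the labelled IL-33 knockouts, against 12100 to 16400 FPKM in wild type. Most of that sum was Kap, the 1 gene that fell, with 10300, 10200 and 7990 FPKM in the labelled IL-33 knockouts, against 14000, 15700 and 11500 FPKM in wild type. Of 6 thick ascending limb genes 5 rose, with sums of 2760 to 3680 FPKM in the labelled IL-33 knockouts, against 1500 to 2180 FPKM in wild type. Umod made up most, with 2210, 2870 and 2160 FPKM in the labelled IL-33 knockouts, against 1380, 1940 and 1630 FPKM in wild type. The kidney label thus had its tubule markers in every library, and the wild-type kidneys carried more of the injury transcripts and less of most tubule transcripts. The part of these markers in the changes of the 35 genes was not tested.

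Of the 7 genes of the mevalonate and isoprenoid steps 5 rose in the labelled IL-33 knockouts, with a median change of 1.91 over the 7. Hmgcs1, which condenses acetoacetyl-CoA with acetyl-CoA to HMG-CoA, had 119, 101 and 107 FPKM in the labelled IL-33 knockouts, against 20.8, 29.9 and 26.2 FPKM in wild type. Hmgcs1 showed no overlap between the groups, with a change of 2.06 ± 0.14 (adjusted p = 6.53e-05). Mvk, the kinase that phosphorylates mevalonate, had 7.89, 7.25 and 8.79 FPKM in the labelled IL-33 knockouts, against 0.795, 1.5 and 2.02 FPKM in wild type. Its change of 1.91 ± 0.19 (adjusted p = 0.00033) came with every knockout library above every wild-type library. Mvd, which decarboxylates the product of the kinases to isopentenyl diphosphate, had 34.4, 31.8 and 34.6 FPKM in the labelled IL-33 knockouts, against 5.73, 7.18 and 6.46 FPKM in wild type. The mean in the knockouts was 5.2 times that in wild type, a change of 2.22 ± 0.10 (adjusted p = 1.79e-05) with no overlap. Idi1, which isomerises that building block, had 24.5, 20.5 and 23.6 FPKM in the labelled IL-33 knockouts, against 3.43, 3.71 and 4.46 FPKM in wild type. Each of the 3 knockout libraries lay above the wild-type range, and the change was 2.30 ± 0.12 (adjusted p = 2.5e-05). Fdps, the synthase of farnesyl diphosphate, had 12.6, 10.9 and 16.1 FPKM in the labelled IL-33 knockouts, against 5.91, 4.13 and 5.21 FPKM in wild type. For Fdps the change was 1.22 ± 0.17 (adjusted p = 0.00125), again without overlap between the groups. The remaining 2 genes were not past the threshold. Pmvk, the kinase between Mvk and Mvd, had 7.93, 8.74 and 10.0 FPKM in the labelled IL-33 knockouts, against 8.03, 6.52 and 8.73 FPKM in wild type, with groups that overlapped and a change of 0.18 ± 0.13 (adjusted p = 0.323). Acat2, the thiolase that supplies acetoacetyl-CoA, averaged 35.4 ± 4.87 FPKM in the labelled IL-33 knockouts, against 28.8 ± 2.92 FPKM in wild type (SD, n = 3 each), a change of 0.29 ± 0.13 (adjusted p = 0.109) with overlapping groups.

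Of the 11 genes that carry farnesyl diphosphate on to cholesterol 9 rose in the labelled IL-33 knockouts, with a median change of 0.88 over the 11. Fdft1, the squalene synthase, had 11.0, 11.4 and 14.0 FPKM in the labelled IL-33 knockouts, against 7.53, 5.48 and 5.52 FPKM in wild type. Fdft1 showed no overlap between the groups, with a change of 0.88 ± 0.15 (adjusted p = 0.00298). Sqle, the squalene epoxidase and a slow step of the pathway, had 22.6, 26.5 and 23.3 FPKM in the labelled IL-33 knockouts, against 4.08, 4.93 and 7.16 FPKM in wild type. Its change of 2.00 ± 0.17 (adjusted p = 0.000185) came with every knockout library above every wild-type library. Lss, which closes the rings to lanosterol, had 4.46, 3.99 and 4.74 FPKM in the labelled IL-33 knockouts, against 0.605, 1.15 and 1.38 FPKM in wild type. The mean in the knockouts was 4.22 times that in wild type, a change of 1.42 ± 0.16 (adjusted p = 0.000592) with no overlap. Cyp51, the lanosterol demethylase, had 65.8, 66.8 and 73.1 FPKM in the labelled IL-33 knockouts, against 7.5, 9.33 and 9.93 FPKM in wild type. Each of the 3 knockout libraries lay above the wild-type range, and the change was 2.82 ± 0.12 (adjusted p = 1.14e-05). Nsdhl, a dehydrogenase that helps strip methyl groups from the sterol, had 26.1, 19.1 and 25.9 FPKM in the labelled IL-33 knockouts, against 4.98, 4.94 and 6.25 FPKM in wild type. For Nsdhl the change was 1.94 ± 0.15 (adjusted p = 0.000106), again without overlap between the groups. Dhcr7, the reductase that ends one branch of the pathway with cholesterol, had 5.97, 4.57 and 6.99 FPKM in the labelled IL-33 knockouts, against 1.85, 1.78 and 2.08 FPKM in wild type. Dhcr7 showed no overlap between the groups, with a change of 1.22 ± 0.15 (adjusted p = 0.000773).

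Another 3 sterol genes rose by smaller amounts, and each lost its call when certain single knockout libraries were left out. Fewer of all genes rose then too, with 2072, 2205 and 2078 without knockout library 1, 2 or 3, beside 3226 with every library. Msmo1, the oxidase that works beside Nsdhl, had 9.94, 7.84 and 10.2 FPKM in the labelled IL-33 knockouts, against 6.3, 4.21 and 6.04 FPKM in wild type. Its change of 0.67 ± 0.16 (adjusted p = 0.0145) came with every knockout library above every wild-type library. Its adjusted p was 0.0595 without knockout library 1 and 0.0624 without knockout library 3. Ebp, the sterol isomerase, had 30.6, 27.0 and 29.2 FPKM in the labelled IL-33 knockouts, against 18.6, 24.5 and 21.0 FPKM in wild type. The mean in the knockouts was 1.35 times that in wild type, a change of 0.43 ± 0.12 (adjusted p = 0.0227) with no overlap. Its adjusted p was 0.0903 without knockout library 1 and 0.0793 without knockout library 3. Sc5d, a sterol desaturase, had 8.73, 8.62 and 9.85 FPKM in the labelled IL-33 knockouts, against 5.46, 6.78 and 7 FPKM in wild type. Each of the 3 knockout libraries lay above the wild-type range, and the change was 0.45 ± 0.12 (adjusted p = 0.0217). Leaving out knockout library 1, 2 or 3 gave Sc5d an adjusted p of 0.0652, 0.0572 or 0.0968. The 2 sterol genes not past the threshold were Tm7sf2, a sterol reductase, with 3.54 ± 0.254 FPKM in the labelled IL-33 knockouts, against 2.65 ± 0.154 FPKM in wild type (SD, n = 3 each) and a change of 0.32 ± 0.11 (adjusted p = 0.0506) without overlap (0.0358 without wild-type library 3), and Hsd17b7, the ketone reductase of the demethylation steps, with a change of -0.19 ± 0.14 (adjusted p = 0.328). The genes that rose most, Cyp51, Sqle and Nsdhl, thus stood beside neighbours in the same chain of reactions that were not past the threshold.

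Among the SREBP factors and their regulators 4 of 5 rose in the labelled IL-33 knockouts, by unequal amounts within each pair of related genes. Srebf1 had 18.0, 20.9 and 19.1 FPKM in the labelled IL-33 knockouts, against 6.26, 7.7 and 7.55 FPKM in wild type. For Srebf1 the change was 1.32 ± 0.11 (adjusted p = 0.000159), again without overlap between the groups. Srebf2 had 17.9, 14.4 and 17.2 FPKM in the labelled IL-33 knockouts, against 13.1, 11.3 and 13.4 FPKM in wild type. Its libraries did not overlap, and the change was 0.36 ± 0.12 (adjusted p = 0.0409). Without knockout library 1 or 3, or wild-type library 1 or 2, the adjusted p of Srebf2 was 0.154, 0.141, 0.0553 or 0.0835. Scap had 12.8, 11.6 and 11.5 FPKM in the labelled IL-33 knockouts, against 7.55, 9.03 and 10.5 FPKM in wild type. Its lowest knockout library lay just above the highest wild-type library, with a change of 0.38 ± 0.13 (adjusted p = 0.0472). The adjusted p of Scap was 0.16, 0.109 and 0.106 without knockout library 1, 2 or 3, and 0.0866 and 0.0766 without wild-type library 1 or 2. Without each of these libraries fewer of all genes rose as well, 2072 to 3170, beside 3226 with every library. Insig1, a retention protein that SREBPs themselves induce, had 23.1, 24.6 and 27.1 FPKM in the labelled IL-33 knockouts, against 6.61, 8.22 and 7.52 FPKM in wild type. Insig1 showed no overlap between the groups, with a change of 1.62 ± 0.11 (adjusted p = 7.03e-05). Insig2, its relative that is induced less by SREBPs, had 12.0, 13.0 and 12.8 FPKM in the labelled IL-33 knockouts, against 10.9, 10.9 and 12.1 FPKM in wild type. The change of Insig2 was 0.15 ± 0.09 (adjusted p = 0.239), with overlapping groups. As ratios of FPKM within a library, Insig1 to Insig2 was 1.92, 1.89 and 2.12 in the labelled IL-33 knockouts, against 0.609, 0.754 and 0.62 in wild type. Srebf1 to Srebf2 was 1.01, 1.45 and 1.11 in the labelled IL-33 knockouts, against 0.478, 0.679 and 0.563 in wild type, so in both pairs the balance shifted towards the first gene in all 3 knockout libraries.

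All 3 genes of sterol transport and receptor turnover rose in the labelled IL-33 knockouts. Stard4, a soluble carrier that moves cholesterol between membranes, had 18.3, 19.6 and 18.4 FPKM in the labelled IL-33 knockouts, against 4.17, 6.1 and 5.01 FPKM in wild type. Its change of 1.71 ± 0.13 (adjusted p = 0.000102) came with every knockout library above every wild-type library. Mylip, a ubiquitin ligase that LXR induces and that marks lipoprotein receptors for degradation, had 8.32, 9.07 and 7.73 FPKM in the labelled IL-33 knockouts, against 4.29, 4.84 and 5.74 FPKM in wild type. The mean in the knockouts was 1.69 times that in wild type, a change of 0.66 ± 0.12 (adjusted p = 0.00496) with no overlap. Abca1, the LXR target that exports cholesterol to apolipoprotein, had 2.12, 3.27 and 2.61 FPKM in the labelled IL-33 knockouts, against 1.03, 1.22 and 1.01 FPKM in wild type. Each of the 3 knockout libraries lay above the wild-type range, and the change was 0.80 ± 0.14 (adjusted p = 0.00393). Macrophages also express Abca1, and of 9 tested macrophage genes 6 rose and 2 fell, with sums of 90.2 to 96.1 FPKM in the labelled IL-33 knockouts, against 112 to 169 FPKM in wild type. The higher sum in wild type came from Cd14, at 4.72, 3.49 and 5.16 FPKM in the labelled IL-33 knockouts, against 134, 88.4 and 97.7 FPKM in wild type, and without it the list summed to 85.4 to 90.8 FPKM in the labelled IL-33 knockouts, against 23.6 to 44.9 FPKM in wild type. Most macrophage genes were thus higher in the same kidneys as Abca1, and their part in the Abca1 level was not tested.

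Fatty acid synthesis was mixed in the labelled IL-33 knockouts, with 2 of 5 genes higher, 1 lower and a median change of 0.14. Acss2, which makes acetyl-CoA from acetate, had 26.0, 27.1 and 24.1 FPKM in the labelled IL-33 knockouts, against 3.9, 5.5 and 4.67 FPKM in wild type. For Acss2 the change was 2.24 ± 0.12 (adjusted p = 3.06e-05), again without overlap between the groups. Fasn, the fatty acid synthase, had 11.4, 14.0 and 13.1 FPKM in the labelled IL-33 knockouts, against 4.06, 4.01 and 5.26 FPKM in wild type. Fasn showed no overlap between the groups, with a change of 1.35 ± 0.13 (adjusted p = 0.00028). Elovl6, which lengthens the product of Fasn, had 2.72, 2.68 and 2.67 FPKM in the labelled IL-33 knockouts, against 5.29, 4.01 and 4.99 FPKM in wild type. Its change of -0.64 ± 0.12 (adjusted p = 0.00522) came with every knockout library below every wild-type library. Acly, which makes acetyl-CoA from citrate, averaged 25.4 ± 1.53 FPKM in the labelled IL-33 knockouts, against 28.1 ± 6.64 FPKM in wild type (SD, n = 3 each), a change of -0.12 ± 0.16 (adjusted p = 0.597). Acaca, the carboxylase that makes malonyl-CoA, averaged 1.61 ± 0.138 FPKM in the labelled IL-33 knockouts, against 1.37 ± 0.0812 FPKM in wild type (SD, n = 3 each), a change of 0.14 ± 0.11 (adjusted p = 0.34) although its groups did not overlap. The transcripts of the enzymes that make acetyl-CoA from acetate and from citrate thus differed, with Acss2 several fold higher and Acly within the spread of the libraries. Acetyl-CoA itself was not measured.

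All 4 desaturase genes rose in the labelled IL-33 knockouts, with a median change of 1.62. Scd1 and Scd2 place the first double bond into saturated fatty acids. Scd1 had 60.7, 109 and 82.0 FPKM in the labelled IL-33 knockouts, against 22.0, 23.8 and 24.2 FPKM in wild type. The mean in the knockouts was 3.61 times that in wild type, a change of 1.77 ± 0.19 (adjusted p = 0.000455) with no overlap. Scd2 had 40.6, 50.7 and 55.8 FPKM in the labelled IL-33 knockouts, against 19.3, 28.3 and 30.1 FPKM in wild type. Each of the 3 knockout libraries lay above the wild-type range, and the change was 0.91 ± 0.18 (adjusted p = 0.00695). Fads2 and then Fads1 add double bonds to make long polyunsaturated fatty acids. Fads2 had 57.9, 58.1 and 54.8 FPKM in the labelled IL-33 knockouts, against 7.61, 10.8 and 11.2 FPKM in wild type. For Fads2 the change was 2.43 ± 0.14 (adjusted p = 3.6e-05), again without overlap between the groups. Fads1 had 34.5, 32.2 and 40.1 FPKM in the labelled IL-33 knockouts, against 9.76, 14.3 and 13.0 FPKM in wild type. Fads1 showed no overlap between the groups, with a change of 1.46 ± 0.15 (adjusted p = 0.000355). The ratio of Fads2 to Fads1 in FPKM was 1.68, 1.81 and 1.37 in the labelled IL-33 knockouts, against 0.78, 0.752 and 0.864 in wild type, so Fads2 was the more abundant in every knockout library and the less abundant in every wild-type library. Adipocyte markers, whose cells are rich in Scd1 and Fasn, were low in this set, with 1 of 7 tested higher and 1 lower and sums of 23.4 to 27.8 FPKM in the labelled IL-33 knockouts, against 27.9 to 57.3 FPKM in wild type. The defining marker Adipoq had 0.0406, 0.0415 and 0 FPKM in the labelled IL-33 knockouts, against 1.59, 0 and 0 FPKM in wild type, and the gene of the list that rose was Aqp7, a glycerol channel, at 0.70 (adjusted p = 0.0356). The part of adipocytes in these levels was not tested.

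Promoters of 4 members are shown because they span the pattern in the IL-33 set: Hmgcs1, which rose in both sets, Cyp51 and Fads2, with the largest changes, and Elovl6, the 1 member that fell. Sequences are from RefSeq on mouse build GRCm38.p6, 300 bases each, 250 before to 50 after the annotated start, on the gene's own strand. Capitals mark a sterol regulatory element spelled TCACNCCAC, an E-box CACGTG, a GC box GGGCGG or a CCAAT box, searched on both strands, so that ATTGG and CCGCCC are matches on the reverse strand. The windows are chr13:119690101-119690400 (+) for Hmgcs1, chr5:4104648-4104947 (-) for Cyp51, chr19:10101454-10101753 (-) for Fads2 and chr3:129532136-129532435 (+) for Elovl6.
Hmgcs1: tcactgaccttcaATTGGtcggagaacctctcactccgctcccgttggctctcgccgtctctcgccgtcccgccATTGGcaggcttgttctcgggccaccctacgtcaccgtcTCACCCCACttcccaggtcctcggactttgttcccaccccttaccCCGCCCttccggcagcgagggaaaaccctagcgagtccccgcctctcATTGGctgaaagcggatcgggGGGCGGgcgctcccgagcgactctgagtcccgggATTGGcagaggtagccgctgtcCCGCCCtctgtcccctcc
Cyp51: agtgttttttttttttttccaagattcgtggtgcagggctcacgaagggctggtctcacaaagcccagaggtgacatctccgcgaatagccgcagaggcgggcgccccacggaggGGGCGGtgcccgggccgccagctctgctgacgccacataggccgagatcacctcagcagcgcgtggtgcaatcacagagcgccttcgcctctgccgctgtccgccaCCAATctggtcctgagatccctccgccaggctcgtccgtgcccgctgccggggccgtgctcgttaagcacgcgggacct
Fads2: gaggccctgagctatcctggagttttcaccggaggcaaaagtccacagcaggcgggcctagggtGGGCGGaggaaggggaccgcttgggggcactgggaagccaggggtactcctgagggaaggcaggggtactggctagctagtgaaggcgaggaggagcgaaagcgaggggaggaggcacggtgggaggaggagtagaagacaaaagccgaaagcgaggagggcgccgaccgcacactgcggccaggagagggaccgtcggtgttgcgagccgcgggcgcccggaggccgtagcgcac
Elovl6: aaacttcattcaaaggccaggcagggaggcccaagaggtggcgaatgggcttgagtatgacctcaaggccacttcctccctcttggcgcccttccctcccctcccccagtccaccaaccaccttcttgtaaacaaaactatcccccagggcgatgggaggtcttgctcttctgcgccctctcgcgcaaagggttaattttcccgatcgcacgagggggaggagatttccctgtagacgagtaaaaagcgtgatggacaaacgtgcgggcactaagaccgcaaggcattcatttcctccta
In these windows Hmgcs1 held 1 sterol regulatory element at bases 114 to 122, with CCAAT boxes on either side and 3 GC boxes after it. Cyp51 held a GC box at bases 116 to 121 and a CCAAT box at bases 222 to 226, Fads2 a GC box at bases 65 to 70, and Elovl6 no match.

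Of the 35 members 28 had a promoter in the RefSeq table. The sterol regulatory element was in 1 of these 28 (3.57%, Hmgcs1), beside 1.51% of tested genes, and in 2.78% of the members' promoters, beside 1.24% of all 32851 promoters of the table. Some genes have several promoters in the table, and the 28 members had 36, so shares are given by gene (with a match in any promoter) and by promoter. GC boxes, bound by Sp factors that work with SREBPs, were in 24 of 28 members (85.7%), beside 67.6% of 9935 genes tested in the IL-33 set with a promoter, and in 77.8% of the members' promoters, beside 35.7% of all promoters. CCAAT boxes, bound by the NF-Y complex, another known partner of SREBPs, were in 22 of 28 members (78.6%), beside 42.3% of those tested genes, and in 63.9% of the members' promoters, beside 37.4% of all promoters. The E-box was in 6 of 28 members (21.4%), beside 11.8% of tested genes, and in 19.4% of the members' promoters, beside 7.15% of all promoters. These are letter matches in a short window and do not show binding.

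In the PAD4 set the same genes did not move together. Of 34 tested members 4 rose (Hmgcs1, Mvd, Ebp and Acss2; 11.8%), where 8.89% of tested genes rose, and 2 fell (Pmvk and Abca1; 5.88%), where 8.79% fell and 17.7% changed in either direction. By at least 1 on the log2 scale 3 members rose (Hmgcs1, Ebp and Acss2), as 4.83% of tested genes did. The median change of the 34 was 0.02, equal to that of all tested genes. All PAD4 knockout libraries lay above all wild-type libraries for 7 members, as for 17.2% of tested genes, and below for 6, as for 15.8%. The 28 members not past the threshold had changes from -0.73 to 0.69. Summed over the 35, the level was 221, 126 and 191 FPKM in the PAD4 knockouts, against 98.1, 125 and 170 FPKM in wild type, so the groups overlapped. The counts varied with single libraries, as those of all genes did. Without PAD4 knockout library 2, 7 members were higher, as were 1770 of all genes, beside 1243 with every library. Without wild-type library 1, 2 members and 352 genes were higher. No member was lower without PAD4 knockout library 3 or without wild-type library 3, where 862 and 515 of all genes were, beside 1230 with every library. Without a filter on level, limma called none of the 35 in either direction, and 0 of all 32199 genes, while the changes of Hmgcs1 and Ebp were still 2.78 and 1.83, and 7 members higher and 3 lower had an unadjusted p under 0.05.

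**Figure D2:**
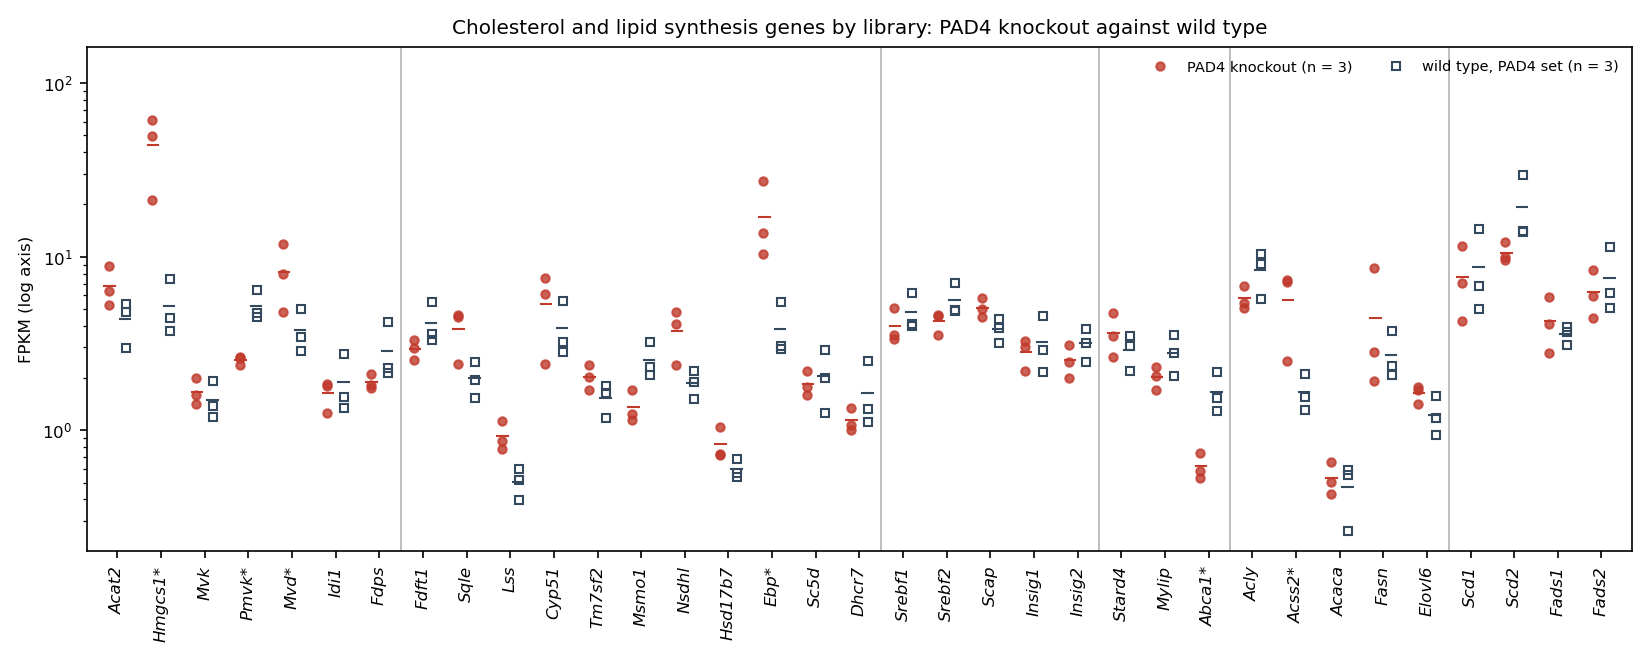
FPKM on a log axis of the 35 genes in each library of the PAD4 set, in order of role and divided by grey lines; filled circles are the 3 PAD4 knockout kidneys, open squares the 3 wild-type kidneys, bars the group means, and an asterisk marks an adjusted p under 0.05. Hmgcs1, Ebp and Acss2 stand clear of wild type in all 3 knockout libraries, Pmvk and Abca1 lie below it, and most other genes overlap.

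Libraries of this set differed in markers of other tissues. Of 13 colon genes all 13 fell, and summed to 133 to 283 FPKM in the PAD4 knockouts, against 528 to 822 FPKM in wild type. All 9 lung genes fell, with sums of 42.6 to 208 FPKM in the PAD4 knockouts, against 296 to 846 FPKM in wild type, and 8 of 9 smooth muscle genes fell, with sums of 63.2 to 242 FPKM in the PAD4 knockouts, against 347 to 750 FPKM in wild type. Proximal tubule genes went the other way, with 12 of 13 higher and sums of 9800 to 24800 FPKM in the PAD4 knockouts, against 4820 to 8060 FPKM in wild type. Most of these sums was Kap, with 24400, 9630 and 15300 FPKM in the PAD4 knockouts, against 5060, 4740 and 7980 FPKM in wild type. The median level of the list was 8.06 to 19.3 FPKM in the PAD4 knockouts, against 1.89 to 2.73 FPKM in wild type. Of 9 tubular injury genes 1 rose (Clu) and 4 fell (Krt8, Krt18, Sox9 and Cdkn1a). The list summed to 874 to 1980 FPKM in the PAD4 knockouts, against 1430 to 1960 FPKM in wild type. Most of these sums was Spp1, with 1590, 1570 and 702 FPKM in the PAD4 knockouts, against 1050, 1140 and 1390 FPKM in wild type. Spp1 had a change of 0.03 (adjusted p = 0.969). Havcr1 had 0.885, 46.9 and 1.15 FPKM in the PAD4 knockouts, against 24.6, 10.9 and 25.9 FPKM in wild type. PAD4 knockout library 2 thus stood apart in Havcr1. Within its group it also had the highest colon, lung and smooth muscle sums, at 283, 208 and 242 FPKM. Its proximal tubule sum was the lowest of the group, at 9800 FPKM. Of 6 thick ascending limb genes 3 rose and 0 fell. They summed to 581, 95.0 and 314 FPKM in the PAD4 knockouts, against 55.2, 172 and 108 FPKM in wild type. PAD4 knockout library 2 had the lowest value of its group for 21 of the 35 members. Of wild type, library 1 was lowest and library 3 highest for 30 each. The part of these tissues and libraries in the changes below was not tested.

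Among the mevalonate genes of the PAD4 set 2 rose and 1 fell of 7. Hmgcs1 had 61.4, 21.3 and 49.5 FPKM in the PAD4 knockouts, against 3.73, 4.46 and 7.44 FPKM in wild type. Its change of 2.78 ± 0.36 (adjusted p = 0.000109) came with every knockout library above every wild-type library. Mvd had 11.8, 4.8 and 7.96 FPKM in the PAD4 knockouts, against 2.88, 3.45 and 5.01 FPKM in wild type. Its lowest knockout library lay below the highest wild-type library, so the groups overlapped, and the change was 0.89 ± 0.29 (adjusted p = 0.0416). Leaving out PAD4 knockout library 1 or 3 gave Mvd an adjusted p of 0.178 or 0.0733, and leaving out wild-type library 1, 2 or 3 gave 0.2, 0.08 or 0.0607. Pmvk had 2.37, 2.66 and 2.61 FPKM in the PAD4 knockouts, against 4.5, 4.72 and 6.42 FPKM in wild type. The mean in the knockouts was 0.488 times that in wild type, a change of -0.80 ± 0.23 (adjusted p = 0.0226) with no overlap. Its adjusted p was 0.0684 and 0.0631 without PAD4 knockout library 1 or 3, and 0.0821 without wild-type library 3. Mvk had 1.99, 1.6 and 1.41 FPKM in the PAD4 knockouts, against 1.2, 1.38 and 1.93 FPKM in wild type. Idi1 had 1.8, 1.26 and 1.86 FPKM in the PAD4 knockouts, against 1.56, 1.35 and 2.75 FPKM in wild type. Fdps had 1.82, 2.12 and 1.75 FPKM in the PAD4 knockouts, against 2.28, 2.13 and 4.22 FPKM in wild type. These 3 genes had changes of 0.10 (adjusted p = 0.812), -0.10 (adjusted p = 0.815) and -0.38 (adjusted p = 0.288), with overlapping groups for Mvk and Idi1. Steps of the same chain thus differed in direction, with Hmgcs1 higher and Pmvk lower in the same kidneys.

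Of the 11 sterol genes 1 rose and none fell in the PAD4 set. Ebp had 27.1, 10.3 and 13.6 FPKM in the PAD4 knockouts, against 2.93, 3.04 and 5.5 FPKM in wild type. Each of the 3 knockout libraries lay above the wild-type range, and the change was 1.83 ± 0.33 (adjusted p = 0.00108). Nsdhl had 4.77, 2.37 and 4.11 FPKM in the PAD4 knockouts, against 1.52, 2.21 and 1.9 FPKM in wild type, a change of 0.69 ± 0.24 (adjusted p = 0.0542) with no overlap. Sqle had 4.52, 2.41 and 4.61 FPKM in the PAD4 knockouts, against 1.54, 1.96 and 2.48 FPKM in wild type, a change of 0.67 ± 0.25 (adjusted p = 0.0666) with a single knockout library inside the wild-type range. Without PAD4 knockout library 2, the adjusted p was 0.00621 for Nsdhl and 0.00797 for Sqle. Msmo1 had 1.14, 1.7 and 1.24 FPKM in the PAD4 knockouts, against 2.32, 2.07 and 3.21 FPKM in wild type, a change of -0.58 ± 0.21 (adjusted p = 0.0687) with no overlap, and its adjusted p was 0.0424 without PAD4 knockout library 2. Cyp51 had 7.58, 2.41 and 6.1 FPKM in the PAD4 knockouts, against 2.81, 3.24 and 5.59 FPKM in wild type, a change of 0.32 ± 0.32 (adjusted p = 0.54). Its values overlapped, with PAD4 knockout library 2 the lowest of the 6. Fdft1 had 2.54, 3.31 and 2.96 FPKM in the PAD4 knockouts, against 3.6, 3.3 and 5.47 FPKM in wild type. Lss had 1.13, 0.776 and 0.872 FPKM in the PAD4 knockouts, against 0.399, 0.597 and 0.52 FPKM in wild type. Dhcr7 had 1.01, 1.34 and 1.07 FPKM in the PAD4 knockouts, against 1.11, 1.33 and 2.5 FPKM in wild type. Their changes were -0.36 (adjusted p = 0.333), 0.35 (adjusted p = 0.166) and -0.27 (adjusted p = 0.428).

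None of the SREBP factors and regulators passed the threshold in the PAD4 set. Srebf1 had 3.37, 3.53 and 5.05 FPKM in the PAD4 knockouts, against 4.01, 4.09 and 6.21 FPKM in wild type, a change of -0.21 ± 0.25 (adjusted p = 0.637). Srebf2 had 4.62, 4.55 and 3.54 FPKM in the PAD4 knockouts, against 4.95, 4.88 and 7.01 FPKM in wild type, a change of -0.33 ± 0.25 (adjusted p = 0.403). Scap had 5.79, 4.52 and 4.97 FPKM in the PAD4 knockouts, against 3.19, 3.89 and 4.37 FPKM in wild type, a change of 0.34 ± 0.24 (adjusted p = 0.363). The Scap groups did not overlap, with the knockouts above wild type, nor did those of Srebf2, with the knockouts below. The Srebf1 groups overlapped. Insig1 had 3, 2.19 and 3.25 FPKM in the PAD4 knockouts, against 2.18, 2.9 and 4.55 FPKM in wild type, a change of -0.11 ± 0.25 (adjusted p = 0.817). Insig2 had 3.12, 2.49 and 1.99 FPKM in the PAD4 knockouts, against 2.49, 3.83 and 3.19 FPKM in wild type, a change of -0.24 ± 0.23 (adjusted p = 0.53). Both Insig genes overlapped between the groups.

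Abca1 fell in the PAD4 knockouts, with 0.531, 0.745 and 0.582 FPKM in the PAD4 knockouts, against 1.29, 1.53 and 2.18 FPKM in wild type. For Abca1 the change was -0.71 ± 0.19 (adjusted p = 0.0147), again without overlap between the groups. Its adjusted p was 0.0501 without PAD4 knockout library 3 and 0.0626 without wild-type library 3. Of 9 tested macrophage genes 5 fell in the same comparison, with sums of 41.6 to 92.7 FPKM in the PAD4 knockouts, against 103 to 189 FPKM in wild type. Stard4 had 4.75, 2.64 and 3.5 FPKM in the PAD4 knockouts, against 2.2, 3.07 and 3.47 FPKM in wild type. Mylip had 1.71, 2.05 and 2.33 FPKM in the PAD4 knockouts, against 2.05, 3.55 and 2.8 FPKM in wild type. Neither passed the threshold, with changes of 0.23 (adjusted p = 0.576) for Stard4 and -0.31 (adjusted p = 0.377) for Mylip.

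Acss2 rose in the PAD4 knockouts, with 7.35, 2.51 and 7.14 FPKM in the PAD4 knockouts, against 1.31, 1.56 and 2.12 FPKM in wild type. Acss2 showed no overlap between the groups, with a change of 1.23 ± 0.29 (adjusted p = 0.00699). Its adjusted p was 0.0916 without wild-type library 1. Elovl6 had 1.7, 1.42 and 1.77 FPKM in the PAD4 knockouts, against 0.94, 1.17 and 1.57 FPKM in wild type, a change of 0.25 ± 0.20 (adjusted p = 0.432). Fasn had 2.84, 1.93 and 8.62 FPKM in the PAD4 knockouts, against 2.08, 2.35 and 3.72 FPKM in wild type, a change of 0.38 ± 0.33 (adjusted p = 0.481). The highest Fasn value was that of PAD4 knockout library 3, and without it the change of Fasn was -0.12, while without PAD4 knockout library 2 it was 0.74 (adjusted p = 0.0475). Scd1 had 7.09, 4.25 and 11.5 FPKM in the PAD4 knockouts, against 4.99, 14.4 and 6.81 FPKM in wild type, a change of -0.15 ± 0.35 (adjusted p = 0.836). The highest Scd1 values were those of PAD4 knockout library 3 and wild-type library 2. Adipocyte markers summed to 17.3, 15.8 and 124 FPKM in the PAD4 knockouts, against 18.2, 69.1 and 22.7 FPKM in wild type, and so were highest in those same libraries. Wild-type library 2 also stood apart in the liver markers Alb, with 2.08, 0.654 and 0.937 FPKM in the PAD4 knockouts, against 1.64, 11.5 and 1.29 FPKM in wild type, and Hpx, with 0.453, 0.452 and 0.383 FPKM in the PAD4 knockouts, against 0.919, 10.4 and 0.515 FPKM in wild type, although the whole liver list summed to 97.6, 57.8 and 63.3 FPKM in the PAD4 knockouts, against 62.2, 68.8 and 74.4 FPKM in wild type. The part of adipocytes and liver in these levels was not tested. Scd2 had 9.57, 12.1 and 9.95 FPKM in the PAD4 knockouts, against 13.9, 14.1 and 29.6 FPKM in wild type, a change of -0.73 ± 0.32 (adjusted p = 0.123). Fads2 had 8.43, 4.45 and 5.92 FPKM in the PAD4 knockouts, against 5.08, 6.19 and 11.4 FPKM in wild type, a change of -0.20 ± 0.30 (adjusted p = 0.712). Fads1 had 5.86, 2.79 and 4.09 FPKM in the PAD4 knockouts, against 3.11, 3.67 and 3.96 FPKM in wild type, a change of 0.16 ± 0.25 (adjusted p = 0.738). None of the 4 desaturase genes passed the threshold, and for Scd2 all knockout libraries lay below those of wild type.

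**Figure D3:**
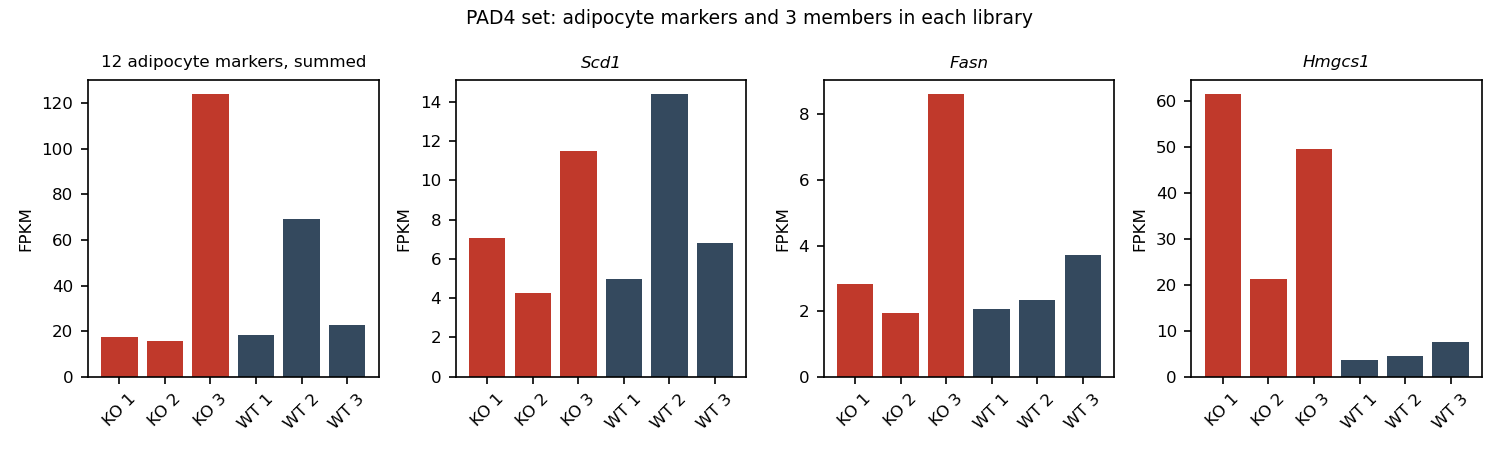
Summed FPKM of the 12 adipocyte marker genes, and FPKM of Scd1, Fasn and Hmgcs1, as a bar for each library of the PAD4 set (KO, PAD4 knockout in red; WT, wild type in blue). The marker sum is highest in PAD4 knockout library 3, at 124, and in wild-type library 2, at 69.1, which also hold the highest Scd1 values, whereas Hmgcs1 is highest in PAD4 knockout library 1, at 61.4.

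The difference between the comparisons was tested directly, as the PAD4 change minus the IL-33 change over 13010 genes tested in both tables. Of 34 members 23 differed (67.6%), where 12.4% of all genes did. For 21 of them the PAD4 change was below the IL-33 change, as for 6.18% of all genes, and for 2, Ebp and Elovl6, it was above, as for 6.23%. The differences were widest for Fads2, at -2.63 ± 0.37 (adjusted p = 0.000642), for Cyp51, at -2.50 ± 0.41 (adjusted p = 0.00164), and for Idi1, at -2.40 ± 0.26 (adjusted p = 0.000143). Ebp, the isomerase that rose in both sets, differed by 1.40 ± 0.40 (adjusted p = 0.0348). Elovl6 differed by 0.89 ± 0.21 (adjusted p = 0.0117). Abca1, higher in the labelled IL-33 knockouts and lower in the PAD4 knockouts, differed by -1.51 ± 0.22 (adjusted p = 0.000829). Hmgcs1, the member that rose most in the PAD4 set, did not differ past the threshold, at 0.72 ± 0.45 (adjusted p = 0.332), and neither did Acss2, at -1.01 ± 0.38 (adjusted p = 0.0998). Of the 27 members that rose in the labelled IL-33 knockouts, 4 rose in the PAD4 knockouts too, 1 fell and 22 were not past the threshold. Because each set was its own batch and table, a difference between knockouts cannot be told apart from a difference between sets.

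**Figure D4:**
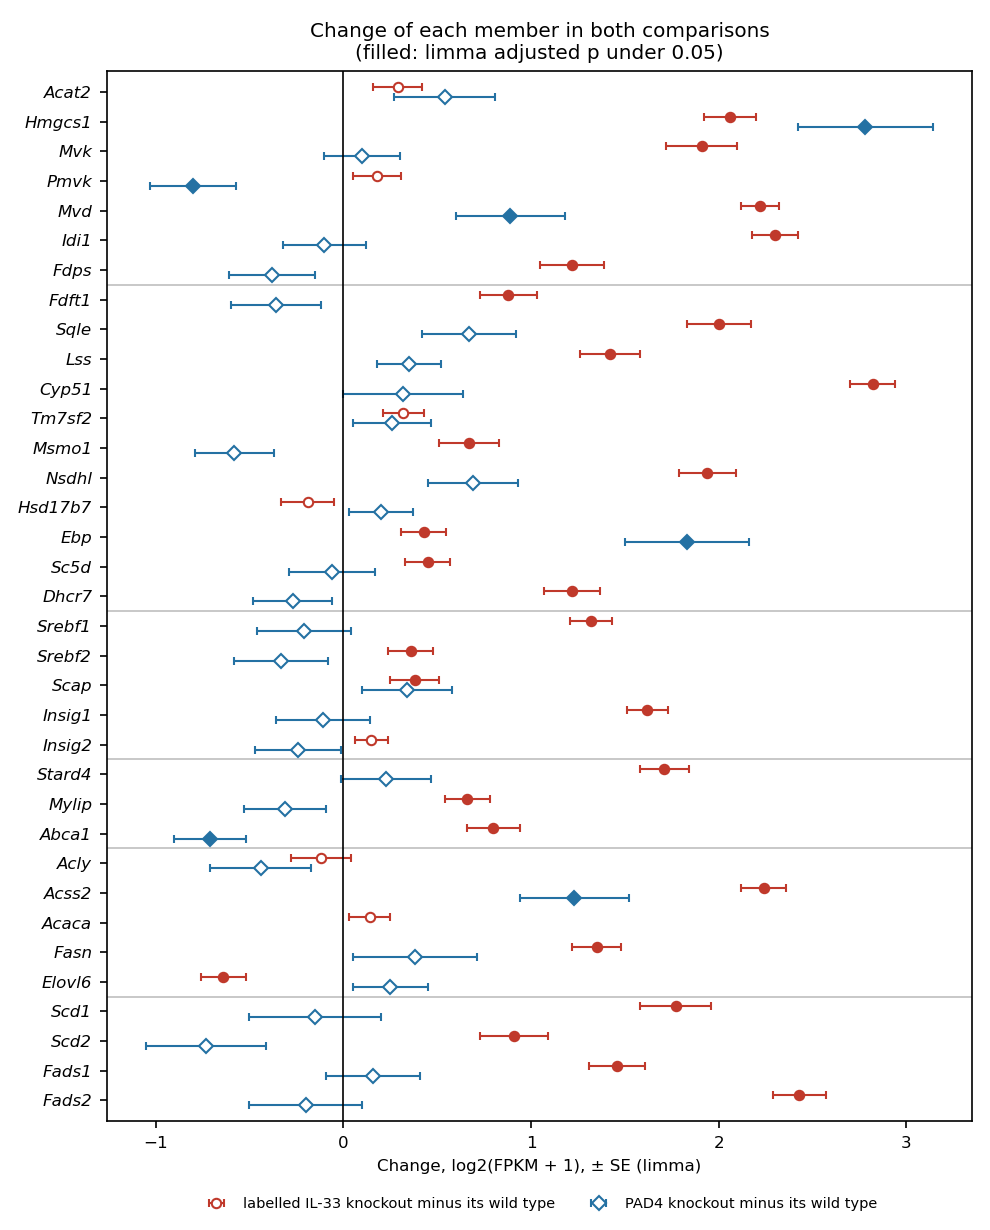
Change of each of the 35 genes (knockout minus wild type, log2(FPKM + 1), with bars of 1 SE), for the labelled IL-33 knockouts and the PAD4 knockouts, in order of role; Acaca has no PAD4 point. The IL-33 points reach 2.82 at Cyp51 while most PAD4 points lie nearer to 0. The PAD4 points are highest for Hmgcs1 at 2.78, Ebp at 1.83 and Acss2 at 1.23, and lowest for Pmvk at -0.80.

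Other genes of the pathway, on lists taken from general knowledge, moved both ways in the labelled IL-33 knockouts, with 34 of 106 tested genes higher (32.1%, beside 22.2% of all tested genes) and 24 lower (22.6%, beside 16.8%). Of 17 tested genes of sterol sensing and SREBP processing 5 rose and 1 fell, with a median change of 0.08. Erlin1 and Erlin2, membrane proteins that restrain SREBP activation, had changes of 1.68 (adjusted p = 0.000513) and 0.51 (adjusted p = 0.00341). Mbtps1, the Golgi protease that makes the first cut in SREBP, had a change of 0.73 (adjusted p = 0.00257). Ube2g2, a ubiquitin conjugase, fell by 0.54 (adjusted p = 0.0142). Of 19 genes of the isoprenoid branch and partners of the sterol enzymes 7 rose and 4 fell. Nus1, a subunit of the dolichol synthase, changed by 1.20 (adjusted p = 0.000139), Cyb5b, an electron donor, by 1.13 (adjusted p = 0.000297), and Erg28, a scaffold of the sterol enzymes, by 0.76 (adjusted p = 0.00314). Rabggta and Rabggtb, which attach isoprenoids to Rab proteins, changed by -1.37 (adjusted p = 0.000159) and -0.52 (adjusted p = 0.00666), and Rce1, a protease of prenylated proteins, by -0.55 (adjusted p = 0.00349).

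Of 11 tested genes of LXR and sterol efflux 4 rose and 3 fell in the labelled IL-33 knockouts. Apoe, a carrier apolipoprotein, averaged 114 ± 10.0 FPKM in the labelled IL-33 knockouts, against 53.5 ± 5.25 FPKM in wild type (SD, n = 3 each), with a change of 1.08 (adjusted p = 0.000309). Abcg1, a sterol exporter, averaged 2.08 ± 0.244 FPKM in the labelled IL-33 knockouts, against 0.409 ± 0.101 FPKM in wild type (SD, n = 3 each), with a change of 1.13 (adjusted p = 0.000395), and Pltp, a phospholipid transfer protein, changed by 1.24 (adjusted p = 0.000332). The factors Mlxipl, Nr1h2 (an LXR) and Rxra changed by -0.41 (adjusted p = 0.0132), -0.34 (adjusted p = 0.0344) and -0.26 (adjusted p = 0.0464). Nr1h3, the other LXR gene, rose by 0.68 (adjusted p = 0.0411) without overlap, so the LXR genes went opposite ways. Macrophages express Apoe and Abcg1 as well, and their markers were given above. Of 16 uptake, transport and storage genes 5 rose and 3 fell. Nceh1, which hydrolyses cholesterol esters, changed by 1.03 (adjusted p = 0.000127), Vldlr, a lipoprotein receptor, by 0.82 (adjusted p = 0.000745), and Cav1, a caveolar protein, by 0.71 (adjusted p = 0.00507). Gramd1a, a sterol transporter, changed by -0.45 (adjusted p = 0.0138), Npc1, which exports cholesterol from lysosomes, by -0.55 (adjusted p = 0.0303), and Scarb1, the high-density lipoprotein receptor, by -0.44 (adjusted p = 0.045).

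Of 21 further fatty acid genes 9 rose and 4 fell in the labelled IL-33 knockouts. Elovl5, an elongase of polyunsaturated fatty acids, changed by 0.78 (adjusted p = 0.000803), Tecr, the last reductase of elongation, by 0.81 (adjusted p = 0.00194), and Fads6, a desaturase relative, by 1.60 (adjusted p = 0.000973). Hacd1, a dehydratase of elongation, changed by -1.41 (adjusted p = 0.000973), Mid1ip1, an activator of acetyl-CoA carboxylase, by -1.03 (adjusted p = 0.00496), and Acsl5, an acyl-CoA synthetase, by -0.39 (adjusted p = 0.0257). Glycerolipid synthesis leaned the other way, with 4 of 22 higher, 9 lower and a median change of -0.21. Lpin3, a phosphatidate phosphatase, changed by -1.02 (adjusted p = 0.000395), Agpat2, an acyltransferase, by -0.72 (adjusted p = 0.000655), and Chkb, a choline kinase, by -1.06 (adjusted p = 0.00571). Pcyt2 and Etnk1, of phosphatidylethanolamine synthesis, changed by 1.50 (adjusted p = 0.000721) and 0.89 (adjusted p = 0.00127), and Ptdss2, a phosphatidylserine synthase, by 0.71 (adjusted p = 0.00483).

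In the PAD4 set 18 of 103 tested genes of these lists passed the threshold (17.5%), a share close to the 17.7% of all tested genes. Of 17 sterol sensing genes 1 rose, Erlin1 at 0.73 (adjusted p = 0.0395). Of 19 isoprenoid and partner genes 2 rose, and Cyb5a, an electron donor to sterol and fatty acid desaturation, averaged 135 ± 55.9 FPKM in the PAD4 knockouts, against 15.0 ± 1.38 FPKM in wild type (SD, n = 3 each), with a change of 3.01 (adjusted p = 2.72e-05). The other, Pdss1, which makes the tail of coenzyme Q, changed by 0.78 (adjusted p = 0.0185). Of 12 LXR and efflux genes 1 rose, Mlxipl at 1.46 (adjusted p = 0.00239), and 3 fell, Abcg5 at -0.74 (adjusted p = 0.0182), Pltp at -0.90 (adjusted p = 0.0263) and Apoe at -0.98 (adjusted p = 0.047). Of 15 uptake and transport genes 2 rose, Gramd1b at 1.21 (adjusted p = 0.00776) and Nceh1 at 1.01 (adjusted p = 0.0208), and 2 fell, Lrp1 at -1.28 (adjusted p = 0.00622) and Npc2 at -1.01 (adjusted p = 0.0126). Of 19 fatty acid genes 2 rose, Fads3 at 1.39 (adjusted p = 0.00185) and Hacd2 at 1.28 (adjusted p = 0.00218), and 1 fell, Acsl3 at -1.14 (adjusted p = 0.00793). Of 21 glycerolipid genes 4 rose and none fell, led by Pcyt2, which averaged 81.7 ± 25.7 FPKM in the PAD4 knockouts, against 10.7 ± 3.12 FPKM in wild type (SD, n = 3 each), with a change of 2.80 (adjusted p = 5.99e-05), then Gpd1, the glycerol phosphate dehydrogenase, at 1.83 (adjusted p = 0.00243), and Mogat1, an acyltransferase, at 1.66 (adjusted p = 0.00518).

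**Figure D5:**
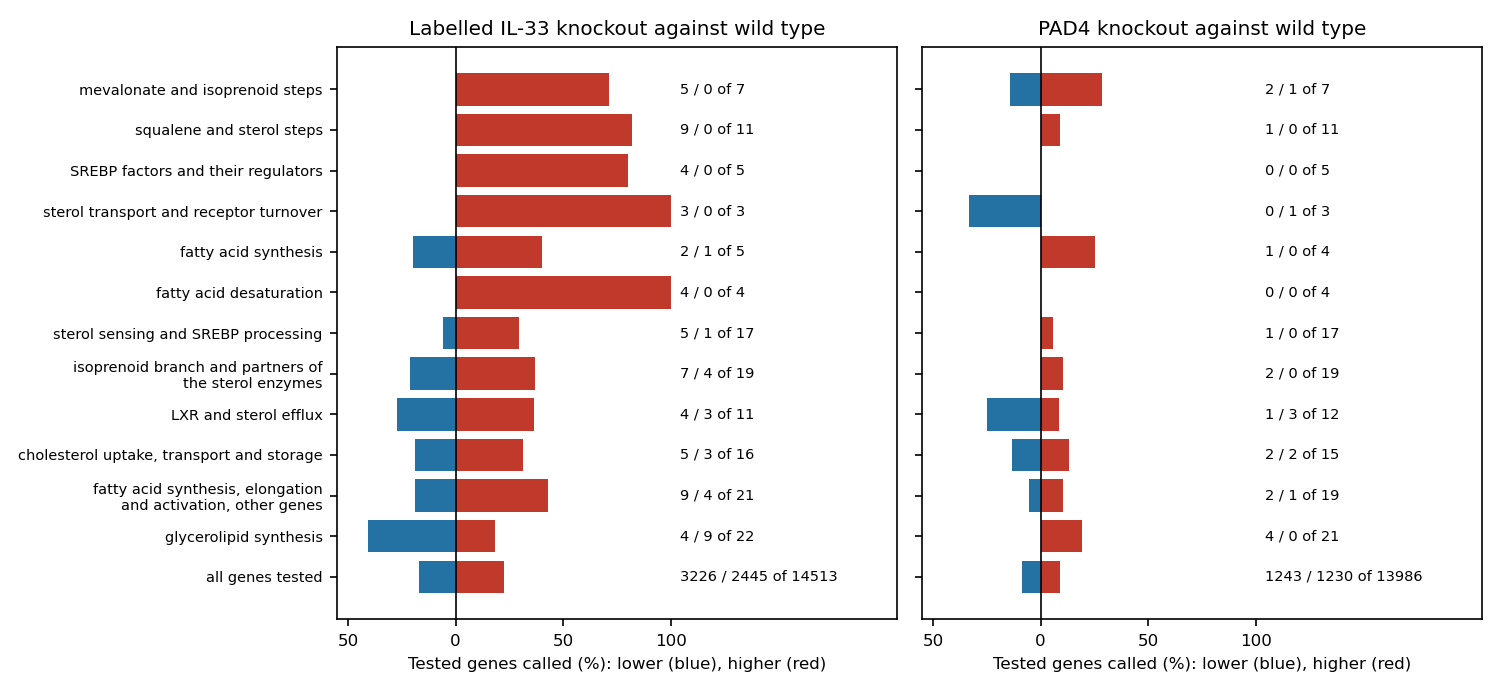
Share of the tested genes that rose (red, to the right) or fell (blue, to the left) by role of the 35 genes, by further pathway list and over all genes, for the labelled IL-33 knockouts and the PAD4 knockouts; the text beside each bar gives the counts higher and lower of those tested. In the IL-33 set all 4 desaturation genes and all 3 genes of sterol transport and receptor turnover rose, while all genes tested stood at 22.2% higher and 16.8% lower.

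Some members share sequence with neighbours in the GENCODE annotation, and whether the authors counted reads by strand is not given in the sources used here. On the opposite strand Cyp51 overlaps Akap9, Fdft1 overlaps Ctsb, Srebf1 overlaps Rai1 and Acss2 overlaps Gss and Ggt7, while Tm7sf2 overlaps Vps51 on the same strand. Fdps also overlaps Gm43738 on the same strand, and Mvd overlaps Gm20388 and Acaca overlaps Gm11437 on the opposite strand. Gm43738 and Gm20388 had no value in either set, and Gm11437 was below the filter in both. In the IL-33 set Akap9 changed by 0.26 (adjusted p = 0.105), Ctsb by -0.05 (adjusted p = 0.784), Rai1 by -0.20 (adjusted p = 0.224) and Vps51 by 0.00 (adjusted p = 0.984), none past the threshold. Gss, a glutathione synthase, averaged 57.7 ± 5.05 FPKM in the labelled IL-33 knockouts, against 37.4 ± 5.6 FPKM in wild type (SD, n = 3 each), with a change of 0.62 (adjusted p = 0.00686). Values of these members, and of the related pair Scd1 and Scd2, are uncertain to the extent that reads were shared.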

How the data were processed

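Kidney RNA from 12 mice was sequenced, and the authors deposited 2 tables of FPKM values, a column per library, per the file headers. Tools named in the submitters' processing notes are HISAT2, StringTie, edgeR, DESeq2, cutadapt and FastQC, without versions or order. For genome build, annotation and strand setting of the counting, nothing is stated (not given in the sources used here). Low FPKM values showed no steps of single reads when libraries were divided by each other (1 bin of the ratios held at most 1.78% of low genes and 6.6% of genes of middle level), so no counts were recovered. That the tables differ in FPKM sums and mitochondrial share can shift levels between sets. Both also varied among the libraries of a table, which can shift levels within a set, and rescaling to the same sum was among the alternatives.

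Symbols came from a GENCODE mouse table, for 30212 genes of the PAD4 table and 29690 of the IL-33 table, and the number of columns without a sample was 0. In the IL-33 table the wild-type columns carry no genotype in their names and were placed by set. limma 3.58.1 (R 4.3.3, eBayes with a trend, two-sided) was run on log2(FPKM + 1), separately per table, over genes with a mean of at least 0.5 FPKM, and the difference between comparisons as a contrast of the 4 group means over genes passing in both tables. Permutation tests are exact. The procedure was tested on simulated data. Members were named by role, with every library's value for those past 0.05 in a comparison or in the difference and for the SREBP factors and regulators, and other pathway genes by the smallest adjusted p, up to 3 in each direction per list. Nr1h3 was added to these because the other LXR gene was named. Alternatives were other pseudocounts, filters, scalings and variance settings, a replicate block, and leaving out each library. The members, lists and tests were chosen with earlier results of these data known.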

Additional observations from a re-analysis of the deposited data

Results flagged for a closer look

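For 23 members the change in the PAD4 knockouts differed from that in the kidneys labelled IL-33 knockout, by limma's contrast of the 4 groups with Benjamini-Hochberg adjustment over 13010 genes, where 12.4% of genes passed. Values are the PAD4 change minus the IL-33 change in log2(FPKM + 1). Among the mevalonate and isoprenoid genes the difference was -1.81 for Mvk, -0.98 for Pmvk, -1.32 for Mvd, -2.40 for Idi1 and -1.60 for Fdps. Of the sterol genes it was -1.24 for Fdft1, -1.33 for Sqle, -1.07 for Lss, -2.50 for Cyp51, -1.25 for Msmo1, -1.25 for Nsdhl, -1.49 for Dhcr7 and 1.40 for Ebp. Srebf1 differed by -1.53 and Insig1 by -1.73. In sterol transport and receptor turnover the values were -1.48 for Stard4, -0.97 for Mylip and -1.51 for Abca1. The fatty acid genes gave 0.89 for Elovl6, -1.92 for Scd1, -1.63 for Scd2, -1.30 for Fads1 and -2.63 for Fads2. Set, batch and table differed together with the knockout, and cannot be told apart from it in these values.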

How the results depend on the processing

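With 3 libraries a group and unknown depth, low genes are the least precise. In the labelled IL-33 knockouts 27 members rose, 22 to 28 over all alternatives, and 1 fell in each of them. The 22 came without knockout library 1 or 3, where 2072 and 2078 of all genes rose, beside 3226 with every library. Of the 28 called there, 23 stayed called under every alternative, and Msmo1, Ebp, Sc5d, Srebf2 and Scap did not. In the PAD4 set none of the 6 called members did, since without a filter on level 0 rose and 0 fell, as over all genes (Hmgcs1 and Ebp lost their calls under that setting alone, with adjusted p of 0.0791 and 0.114). The 4 that rose there became 7 under quantile normalization (all genes 1916, beside 1243) and 7 under array weights (2267), and 2 to 7 leaving out single libraries. The 2 that fell became 1 with a mean of at least 2 FPKM, where Abca1 was below the filter and so not tested, and Pmvk kept its call. They became 1 after rescaling to the same sum, 6 under array weights (all genes 2939, beside 1230), and 0 to 3 leaving out single libraries. The cause of these other shifts was not tested. Replicate numbers did not pair the libraries, as same-numbered deviations correlated at -0.146 to 0.134, and with a replicate block 1 member fell and the other counts stayed within 1.5 times. Without any 1 library 21 to 24 members differed between the comparisons, beside 23. No called result reversed. Of the changes of single members under an alternative, 1092 kept their side of the threshold, 23 gained a call and 46 lost it, and 14 of the 1092 turned sign while not called, Fasn in the PAD4 set among them.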

Other observations

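Cidec, which enlarges lipid droplets and is also an adipocyte marker, was picked after its values were seen. It had 0.399, 0.766 and 0.589 FPKM in the labelled IL-33 knockouts, against 11.1, 8.4 and 8.9 FPKM in wild type, a change of -2.72 ± 0.15 (adjusted p = 2.72e-05) in the IL-33 set. It was thus low in the libraries where the sterol and desaturase genes were high, and the groups did not overlap. Glycerolipid enzymes went both ways. Dgat2, which adds the last acyl chain, averaged 33.4 ± 4.06 FPKM in the labelled IL-33 knockouts, against 54.6 ± 10.3 FPKM in wild type (SD, n = 3 each), with a change of -0.68 (adjusted p = 0.00941). Gpat3, which adds the first, averaged 1.85 ± 0.689 FPKM in the labelled IL-33 knockouts, against 5.36 ± 1.5 FPKM in wild type (SD, n = 3 each), with a change of -1.16 (adjusted p = 0.0064). Agpat1, which adds the second, averaged 31.7 ± 0.702 FPKM in the labelled IL-33 knockouts, against 17.8 ± 5.16 FPKM in wild type (SD, n = 3 each), with a change of 0.84 (adjusted p = 0.0132), and Gpam, Gpat4 and Agpat3 were not past the threshold. These enzymes were picked from the list after their values were seen. In the PAD4 set Cidec had 1.64, 1.59 and 7.94 FPKM in the PAD4 knockouts, against 1.92, 5.93 and 2.59 FPKM in wild type, a change of -0.08 ± 0.39 (adjusted p = 0.922), and its highest libraries were those with the highest adipocyte marker sums.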
